A study of Danio rerio with 4 samples.

Results

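The 5-hydroxymethylcytosine (5hmC) regions of zebrafish (Danio rerio) chromosome 23 were described from 2 peak lists, each made from 1 capture library. Members were the peaks whose deposited chromosome name was chromosome 23 on the danRer7 build. Replicate 1 had 5908 such peaks of 145501 in all (4.06%) and replicate 2 had 5963 of 145893 (4.09%), on 3.42% of the summed chromosome spans. Where peaks of the lists overlapped they were joined into 1 consensus region, which had to hold a peak of each list, and this left 4627 on chromosome 23 of 110315 (4.19%). Chromosome 23 was chosen by its number of peaks per Mb, the highest of the 25 chromosomes, so its density is given as a description, without a test.

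Both captures came from genomic DNA of 48 hours post fertilisation hearts, dissected by hand out of untreated wild-type embryos. The labels give the strain background as AB, while their growth protocol speaks of AB and TU parents. Each group was a pool of at least 40 hearts. Separate clutches are not stated, so the spread between the 2 lists may be technical. The series also holds 2 input libraries, whose values were not analysed here. Pooled whole hearts mix muscle, endocardium and other cells, so fewer cells carrying 5hmC at a region and less 5hmC per cell cannot be told apart.

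As background, 5hmC is made from 5-methylcytosine by TET enzymes, as a step towards removal of the methyl group or as a lasting mark. In vertebrate tissues it is known to gather in the bodies of transcribed genes and at enhancers, and to be scarce over repeat-rich heterochromatin. Its distribution along a chromosome therefore usually differs between gene-rich and gene-poor stretches. No danRer7 sequence or gene annotation was used, so no region is assigned to a gene and no sequence is shown.

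The density of chromosome 23 was above that of each other chromosome in both captures. Replicate 1 had 127.4 peaks per Mb and replicate 2 had 128.6, a mean of 128.0 ± 0.838 (SD, n = 2 captures). Chromosome 18, the next, had 125.0 ± 0.666 (SD, n = 2), and chromosomes 13 and 11 followed with 122.7 ± 0.314 and 122.6 ± 1.02 (SD, n = 2 for each). Consensus regions stood at 99.8 per Mb on chromosome 23 and 95.5 on chromosome 18, against a median of 82.2 for the other 24 chromosomes, a ratio of 1.21. They covered 17.4% of the span of chromosome 23 and 16.4% of that of chromosome 18, with a median of 14.0% over the other 24.

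**Figure D1:**
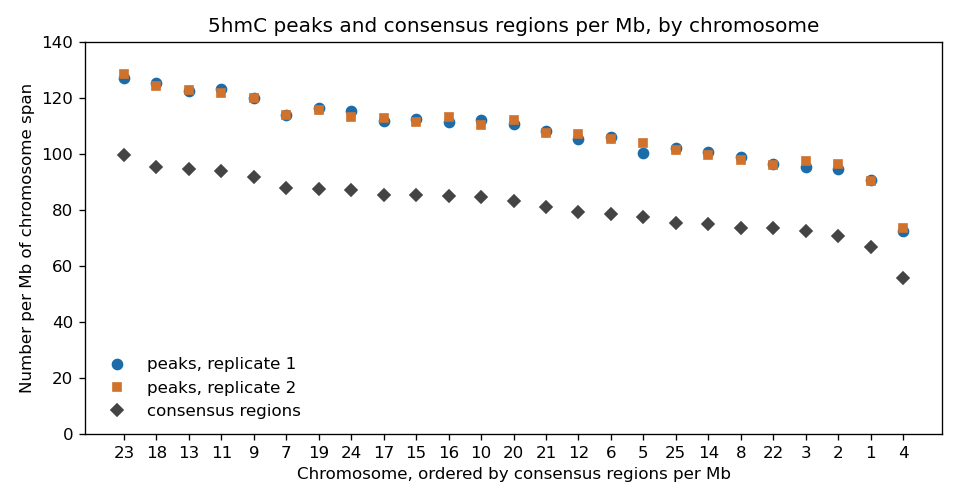
Peaks per Mb in each capture (circles and squares) and consensus regions per Mb (diamonds) for the 25 chromosomes, ordered by consensus regions per Mb. Chromosome 23 is at the left with 99.8 consensus regions per Mb, chromosome 4 at the right with 55.9, and the 2 captures nearly coincide.

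The question was then whether this density was even or made by a few windows of 1 Mb. The excess was broad over the middle of the window distribution, and 1 window was very dense besides. Across the 46 complete windows of chromosome 23, the number of consensus regions ranged from 17 to 245, with quartiles of 71.5 and 123 and a median of 100. The median window of the other chromosomes held at most 93, on chromosome 18, and 77 in the middle of the order of chromosomes. When windows were read off at every 4th percentile, chromosome 23 was above each other chromosome at all 15 points from the 16th to the 72nd percentile. At the 20th percentile it had 66 regions, where the others reached at most 63 and had a median of 48.4. At the top its place was lower: it stood at rank 8 at the 84th percentile and at rank 3 for the densest window.

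**Figure D2:**
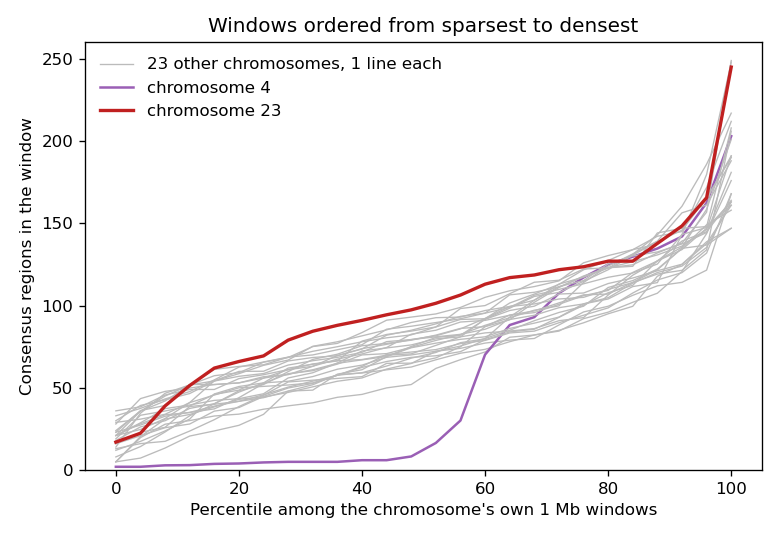
Consensus regions per 1 Mb window (vertical axis) against the percentile of the window among those of its own chromosome (horizontal axis), 1 line per chromosome. The chromosome 23 line is the uppermost from the 16th to the 72nd percentile, and lies among the others at both ends.

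Of the 46 windows, 33 (71.7%) were above the genome median of 78 consensus regions, while 49.3% of all 1344 windows were. At or above the upper quartile of the genome (108 regions) lay 20 windows (43.5%, against 25.1% of all windows), and 6 of the 46 (against 25.7% of all) lay at or below the lower quartile (52 regions). The percentages above the median and the upper quartile were the highest of the 25 chromosomes, and that below the lower quartile was the lowest, tied with chromosome 11. The single densest window held 5.34% of the regions, at rank 5, which was 1.27 times the median of the other chromosomes. The share of 1 window is larger where there are fewer windows, and the other chromosomes had a median of 53.5 windows against 46 here. The densest 10% of windows, rounded up to 5 of 46, held 19.4% of the regions, which was rank 17 of 25 from the highest, with a median of 20.1% on the other chromosomes. Rounding up takes a slightly different fraction of windows on each chromosome, and the rank ran from 9 to 24 over the settings tried. The coefficient of variation over windows was 0.435, again at rank 17, where the others spanned 0.39 on chromosome 19 to 1.11 on chromosome 4. To collect 50% of the regions from the densest windows down took 37.0% of the windows, more than on each other chromosome (19.4 to 36.4%). Whole windows were counted here (17 of 46), so this narrow lead may rest on rounding.

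Removing the 1 or 5 densest windows did not remove the lead. Longer stretches, such as the rich one from 23 to 40 Mb, were not removed. Without the densest window of chromosome 23 alone, the mean of its remaining windows was 96.5 regions, above the 95.3 of complete windows on chromosome 18. Without the 5 densest windows of each chromosome, chromosome 23 kept a mean of 90.2, the next chromosome had 87.2 and the median of the others was 73.2.

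Along the chromosome the windows fell into 4 blocks, whose bounds were drawn after the counts had been seen. From the start to 11 Mb, windows held 66 to 141 consensus regions, with a mean of 106.5. From 11 to 23 Mb the mean was 70.5 and the range 17 to 117. Between 23 and 40 Mb each of the 17 windows held 84 or more, up to 245, with a mean of 131.3. The last 6 complete windows, from 40 to 46 Mb, fell back to a mean of 56.5 and held 23 to 91. The mean over all windows of the genome was 81.1. The blocks up to 11 Mb and from 23 to 40 Mb were above it, and those from 11 to 23 Mb and from 40 to 46 Mb were below it. The bounds rest on peaks of both captures, so each capture's values in them are a description. Replicate 1 had 134.2, 93.5, 162.9 and 82.3 peaks per Mb in them and replicate 2 had 135.4, 97.3, 161.6 and 85.3. The 23 complete windows beyond 23 Mb held 2571 consensus regions and the 23 before it held 2018. Neighbouring windows resembled each other moderately (Spearman's rho 0.42 over adjacent windows, rank 12 of 25), which is a description over windows that share libraries.

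**Figure D3:**
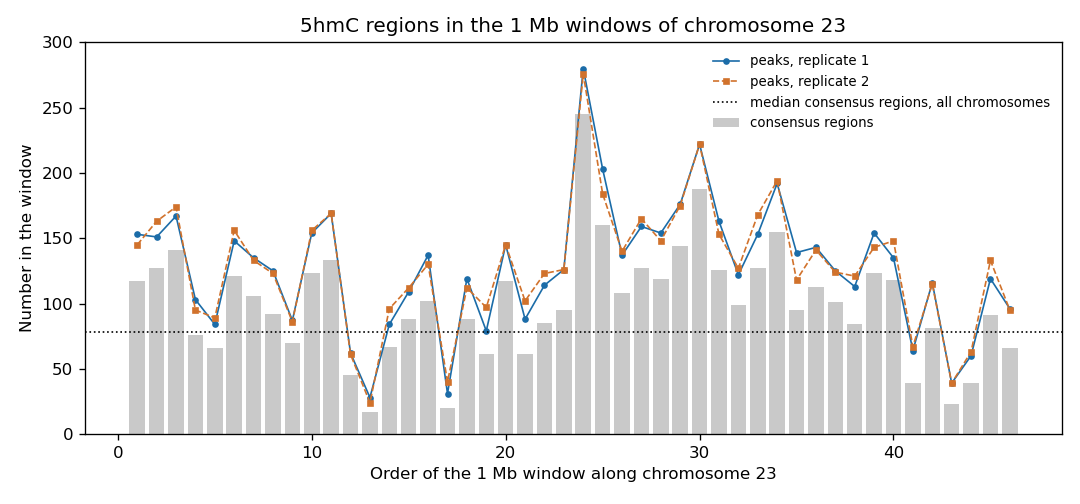
Number of consensus regions (grey bars) and of peaks in replicate 1 (solid line) and replicate 2 (dashed line) in the 46 complete 1 Mb windows of chromosome 23, in order along it. The dotted line is the median of 78 consensus regions over all windows of the genome; window 24 stands out with 245, and the lowest windows hold 17 to 39.

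Set against equally long stretches elsewhere, the richest part of chromosome 23 was not the richest of the genome, while its poorest part was among the least poor. Its best 17 windows in a row, at 23 to 40 Mb, averaged 131.3 regions, below the best 17 of chromosome 4 (136.4, at 4 to 21 Mb) and above those of chromosome 7 (129.1). Its best 5 in a row averaged 151.8, at rank 5, where chromosome 24 led with 176.6. Its sparsest 23 windows in a row averaged 87.7, and 2 other chromosomes had a sparsest stretch of that length above this value. Chromosome 23 was therefore the densest chromosome as a whole, though not the densest over stretches of 5, 11, 12, 17 or 23 Mb. These extremes were taken from unequal numbers of stretches, since chromosome 23 had 46 complete windows and the others 38 to 77.

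The 5 densest windows of chromosome 23 all lay beyond 23 Mb. The window at 23 to 24 Mb held 280 peaks of replicate 1, 276 of replicate 2 and 245 consensus regions, which covered 50.5% of it and placed it the third of 1344 windows. Its regions were spread through it: each of its 10 stretches of 100 kb held 18 to 30 consensus regions, covering 31.9 to 75.3%. It was followed by the window at 29 to 30 Mb with 188 regions (222 peaks in each list), then by 24 to 25 Mb with 160, 33 to 34 Mb with 155 and 28 to 29 Mb with 144. The captures differed most within this set at 24 to 25 Mb, where replicate 1 had 203 peaks and replicate 2 had 184.

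The sparsest windows stood alone or in pairs between richer ones. The window at 12 to 13 Mb held 28 and 24 peaks and 17 consensus regions, covering 2.20% of it. At 16 to 17 Mb there were 31 and 40 peaks and 20 consensus regions. In the last block, 42 to 43 Mb held 39 peaks in each list and 23 consensus regions, and the windows at 40 to 41 and 43 to 44 Mb held 39 consensus regions each. Only the window at 12 to 13 Mb had under 20 consensus regions, which put chromosome 23 at rank 12 from the highest for such windows. The other chromosomes had a median of 0.5, with 33 on chromosome 4.

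Long gaps without a peak in either list were few, though not the fewest. Unsequenced or repeated stretches of the build were not taken out, and their part in these gaps was not tested. Of 6901 gaps on chromosome 23, 49 exceeded 50 kb, or 1.06 per Mb against a median of 1.41 on the other chromosomes, and 5 exceeded 100 kb. Chromosomes 11, 13 and 18 had fewer over 50 kb per Mb (0.857, 0.943 and 1.00). The longest on chromosome 23 ran from 12586040 to 12848010 (262.0 kb) inside the sparsest window, and was the 30th longest of the genome. The others over 100 kb were 3534611 to 3671071 (136.5 kb), 36084570 to 36212166 (127.6 kb), 17052676 to 17170944 (118.3 kb) and 16128953 to 16235211 (106.3 kb). Of the 49, 33 began in the 12 windows with the fewest consensus regions, though windows chosen for few regions leave more room for long gaps. Between neighbouring consensus regions the median distance was 3140 bp, shorter than on every other chromosome except chromosome 4 (2594 bp), and 90% of distances were below 19730 bp, the lowest such value of the 25. Windows of 100 kb without any consensus region made up 2.38% on chromosome 23, or 11 of 463, and 6.38% over all chromosomes, with 35.5% on chromosome 4. The median of the other chromosomes was 4.98%, and chromosome 11 was lower than chromosome 23, at 1.72%.

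Clusters were described by linking consensus regions no more than 5 kb apart. Chromosome 23 had 34 such chains longer than 50 kb, 0.733 per Mb, and chromosomes 11 and 24 followed closely (at most 0.729 per Mb), with a median of 0.445 on the other 24. That place depended on the settings: with a link of 2 kb there were 2 such chains (rank 9 per Mb), with 10 kb there were 99 (rank 1), and with peaks above the median score 8 (rank 6). Without the 4 chains that began in the window at 23 to 24 Mb, 30 were left (rank 5, with all chains of the other chromosomes kept). The chain at 22985222 to 23170771 stayed among the 30, as it began before this window, though most of it lay inside. The 34 chains took in 773 regions, or 16.7% of those on the chromosome, at rank 5 where the others had a median of 12.2% and reached 22.1% on chromosome 4. They spanned 5.86% of the chromosome. They began in 22 of the 46 windows. The longest ran from 29195751 to 29387388 (191.6 kb), with 64 consensus regions covering 71.2% of it, and was the 7th longest of the genome. The next, 22985222 to 23170771 (185.6 kb), led into the densest window and had 48 regions covering 73.5%. The chain at the start of the chromosome, 61 to 130122, held 30 regions, and those at 33028859 to 33155873 and 26601267 to 26726245 held 38 each. The last of these was looser, with 49.9% covered.

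Peaks inside the chains scored higher and were shared more often than those outside. Inside, the median score was 170.2 over 877 peaks in replicate 1 and 185.1 over 854 in replicate 2; outside, the medians were 102.9 and 106.9. The score is the authors' own value for each peak from their peak caller, with a lowest deposited value of 50.0 and no stated scale, so it may be a measure of significance, and its ratios may not be ratios of 5hmC. Of the peaks inside, 95.2% and 94.5% overlapped one of the other capture, against 79.7% and 77.2% outside and, over all chromosomes, 79% of replicate 1 and 77.4% of replicate 2 peaks. Chains were built from shared regions, and over the whole chromosome shared peaks scored higher than unshared ones. Their median scores were 127.2 against 68.5 in replicate 1 and 136.5 against 69.8 in replicate 2. Both the score difference and the sharing difference therefore follow in part from the definition of chains.

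Over the whole chromosome, scores were slightly higher than elsewhere in both lists. Across the 25 chromosomes, the median score rose with consensus regions per Mb (Spearman's rho 0.61 in replicate 1 and 0.51 in replicate 2). The high scores are thus not a trait separate from the density by which chromosome 23 was chosen. In replicate 1 the median was 109.9 (quartiles 73.2 and 180.7) on chromosome 23 and 103.4 for all peaks elsewhere, a ratio of 1.06. In replicate 2 it was 114.6 (quartiles 73.5 and 197.0) against 108.0, also a ratio of 1.06. Both medians were the highest of the 25 chromosomes, by a narrow margin: the next were 109.3 on chromosome 13 in replicate 1 and 113.0 on chromosome 4 in replicate 2. The lower quartile was at rank 1 in replicate 1 and rank 5 in replicate 2, and the upper quartile at ranks 5 and 1. Among peaks above the median score, the ratio was 1.03, and the poorer rank of the 2 lists was 8. With 2 captures, an exact two-sided sign test of chromosome 23 against the rest cannot go below p = 0.5. The differences in score, and those in width and sharing below, were therefore not tested.

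The excess of peaks on chromosome 23 over the median of the others was larger at high scores than at low ones. In the lowest score decile of replicate 1, chromosome 23 had 10.8 peaks per Mb, which was 0.978 times the median of the other chromosomes. In the highest decile it had 13.9 per Mb, or 1.34 times that median, while chromosomes 13 and 7 were denser there (14.2 and 14.1 per Mb). In each list, chromosome 23 was the densest in 5 of the 10 score deciles. In replicate 2 the ratio went from 1.11 to 1.41 between these deciles, though not in even steps, since it was 1.04 in the 5th. In the top decile of its list, chromosome 23 placed 646 peaks of replicate 1 (10.9%, where 10% of all peaks are in it) and 688 of replicate 2 (11.5%, against 10%). These shares were at rank 5 and rank 2 of the 25 chromosomes.

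**Figure D4:**
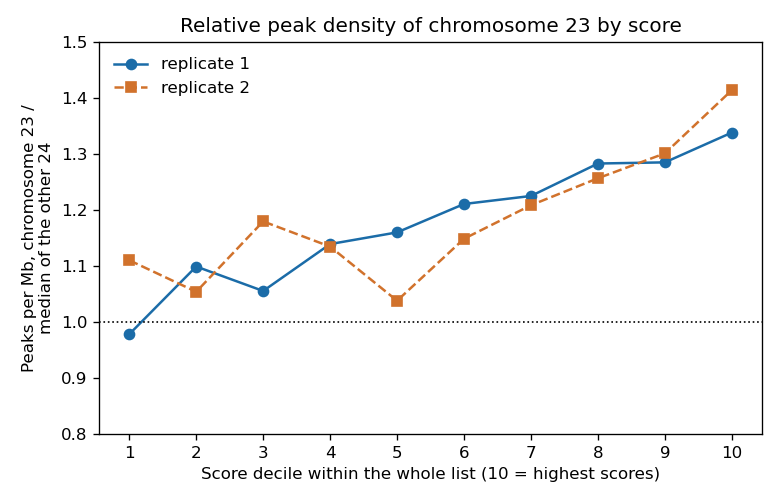
Peaks per Mb on chromosome 23 divided by the median of the other 24 chromosomes (vertical axis, starting at 0.8) for each score decile of the whole list, in replicate 1 (circles) and replicate 2 (squares). The ratio is 0.978 and 1.11 in the lowest decile and 1.34 and 1.41 in the highest.

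Peaks were also slightly wider than elsewhere. In replicate 1 the median width was 1205 bp, with quartiles of 923 and 1654 bp, against 1167 bp on the other chromosomes. Replicate 2 had a median of 1281 bp, with quartiles of 974 and 1782 bp, against 1233 bp elsewhere. Both medians were at rank 2, below chromosome 7 (1228 and 1293 bp). The extremes were unremarkable: the widest peaks, 9194 and 9533 bp, were at ranks 16 and 22 of 25. A width over 5 kb was reached by 64 consensus regions (1.38%), close to the 1.24% over all chromosomes. Score and width were related on chromosome 23 much as elsewhere (Spearman's rho across its peaks 0.47 and 0.46).

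The highest-scoring regions of chromosome 23, by mean score rank over both lists, lay close together. Of the 10 highest, 7 fell between 23092984 and 23211479, a stretch of 118.5 kb in which 28 consensus regions covered 76.2%. High ranks in both lists follow from this choice, so the values are a description. The highest by mean rank was the region at 23195239 to 23201328 (scores of 1814 and 2266 in replicates 1 and 2), the 18th of the genome. It was followed by 23160122 to 23168942 (scores of 2302 and 1713), 23152555 to 23157228 (1899 and 1716) and, outside the stretch, 35968457 to 35972527 (1521 and 2011). The captures could differ within the stretch: the region at 23206253 to 23211479 scored 1246 in replicate 1 and 2092 in replicate 2. The remaining 5 of the 10 were 39355914 to 39365048, 23105352 to 23110734, 23125261 to 23130069, 23092984 to 23096711 and 19038795 to 19043346, with scores between 1253 and 1698. Weak regions lay among the strong ones, since the lowest scores within the 28 were 50.5 in replicate 1 and 52.8 in replicate 2.

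Of the 100 consensus regions of the genome with the highest mean score rank, 7 were on chromosome 23, a number that 2 chromosomes exceeded, chromosome 7 with 10 among them. Of these 7, 5 came from the stretch of 118.5 kb alone. Among the highest 1000 chromosome 23 held 63 (6.30%, rank 2) and among the highest 10000 it held 464 (4.64%, rank 5), while it held 4.19% of all consensus regions. Its highest single scores were 2302 in replicate 1 and 2266 in replicate 2.

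None of the 5 widest regions of chromosome 23 was among the 10 highest-scoring. The widest, 45073082 to 45085033 (11952 bp), was divided into 4 peaks in replicate 1 and 2 in replicate 2, and was the 31st widest of the genome. The next, 23141986 to 23152267 (10282 bp), belonged to the strong stretch and scored 724.6 where replicate 1 divided it into 3 peaks and 2257 where replicate 2 had 1. The others were 87330 to 96809, with scores of 356.8 and 303.8, then 24011452 to 24020755 and 44541031 to 44550315, between 9285 and 9480 bp wide. Among these 5, 3 lay in the first window or in the last 2 complete windows, a grouping made after their places had been seen. These windows held 117, 91 and 66 of the 4627 consensus regions. Whether wide regions in general lay near the ends was not tested.

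The percentage of peaks found in both captures was the highest of the 25 chromosomes at an overlap of 1 bp. In replicate 2 it was not the highest when 50% of both peaks had to overlap (74.2%, rank 2) or when only peaks above the median score were used (75.2%, rank 3). Peaks that overlapped the other list by at least 1 bp counted as shared. Across the 25 chromosomes, the shared percentage rose with consensus regions per Mb (Spearman's rho 0.48 in replicate 1 and 0.69 in replicate 2), though consensus regions are made of shared peaks. In replicate 1, 4847 of its peaks were shared, or 82.0% (95% Wilson interval 81.0 to 83.0%), where 79% of all replicate 1 peaks were. In replicate 2, 4749 were shared, or 79.6% (78.6 to 80.6%), against 77.4% of all. The intervals reflect counting error alone, as if peaks were independent, and they overlapped those of the next chromosomes, 13 (80.8%, 79.9 to 81.8%) in replicate 1 and 11 (79.1%, 78.0 to 80.1%) in replicate 2. The lists shared 6.62 Mb out of the 10.6 Mb that at least 1 of them covered. This Jaccard index of 0.625 was again the highest, where the others ranged from 0.576 to 0.620.

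Part of this difference moved with the scores. Other chromosomes, weighted to the score deciles of chromosome 23, would share 80.2% and 78.4% of their peaks, which leaves a difference of 1.80 and 1.20 percentage points in place of 3.16 and 2.32. So weighted, no single other chromosome exceeded chromosome 23 (at most 81.9% and 79.6%), though the nearest was only 0.179 points below it in replicate 1 and 0.0374 in replicate 2. More peaks per Mb also leave more room for overlap without a common cause, and the part of this in the result was not tested.

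The higher density of chromosome 23 was mostly one of shared peaks. Shared peaks numbered 104.5 per Mb in replicate 1 and 102.4 in replicate 2, the highest of the 25 chromosomes, against medians of 86.0 and 84.1 on the others. Shared peaks are part of the peaks per Mb by which this chromosome was chosen, so their rank is a description. Over all chromosomes 79% of replicate 1 and 77.4% of replicate 2 peaks were shared. A chromosome chosen for many peaks would thus be likely to have mostly shared ones in its excess. Unshared peaks were at 22.9 per Mb in replicate 1, below the median of 23.4 (rank 15). In replicate 2 they were at 26.2, above the median of 24.4 (rank 5). This pattern was not particular to chromosome 23. In replicate 1, chromosomes 18, 13 and 11 had 100.1, 99.0 and 97.9 shared peaks per Mb, and 25.4, 23.5 and 25.4 unshared ones. The 1061 unshared peaks of replicate 1 and the 1214 of replicate 2 were weak, with median scores of 68.5 and 69.8, where shared peaks had 127.2 and 136.5. They were also narrower, with medians of 961 and 1038 bp against 1272 and 1360 bp.

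High-scoring unshared peaks were rare, as on the other chromosomes. In the top score decile, 99.8% of the chromosome 23 peaks of replicate 1 and 100% of those of replicate 2 were shared, against 99.8% and 99.9% elsewhere. The 1 exception on chromosome 23, in replicate 1, was at 32986868 to 32988434, with a score of 305.3, 1990 bp from the nearest replicate 2 peak. The next in replicate 1 were at 30105716 to 30106479 (224.9), 13736396 to 13737820 (219.9), 22274922 to 22275739 (208.6) and 20468441 to 20470487 (200.3). In replicate 2 the strongest was at 15104982 to 15105610 (258.9), then 33835301 to 33837108 (245.5), 33023797 to 33025411 (233.7), 43236200 to 43238518 (230.2) and 21619612 to 21620775 (227.2). The longest run of neighbouring unshared peaks had 6 peaks in each list. It was at 22245230 to 22275739 in replicate 1 (scores 52.4 to 208.6) and 25249590 to 25331725 in replicate 2 (scores 55.7 to 82.7). These run lengths were not compared with those of other chromosomes.

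At single regions the captures agreed about as well as elsewhere. A total of 4344 peaks had exactly 1 partner in the other list, which had no further partner itself. Their scores had a Spearman's rho of 0.67 on chromosome 23, at rank 3 where the others spanned 0.62 to 0.69. Dividing the replicate 2 score of a pair by its replicate 1 score gave quartiles of 0.772 and 1.41, and the median edge was displaced by 70 bp, against a median of 69 bp on the other chromosomes. The number of peaks per window had a rho of 0.97 between the lists over the 46 windows. The largest difference in each direction was at 34 to 35 Mb, where replicate 1 had 139 peaks and replicate 2 had 118, and at 18 to 19 Mb, where they had 79 and 97.

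Density, score and sharing varied together along chromosome 23. In its 12 densest windows the median score was 127.4 in replicate 1 and 132.0 in replicate 2, and 86.6% and 83.9% of peaks were shared. Its 12 sparsest windows had medians of 89.8 and 87.8, and 74.4% and 68.6% were shared. The window at 23 to 24 Mb had the highest shared percentages, 94.3% and 92.4%, and median scores of 186.3 and 199.4. Consensus regions are themselves made of shared peaks, so part of this relation follows from how they were counted. The lowest shared percentages were 60.7% in replicate 1 at 12 to 13 Mb, over 28 peaks, and 50.0% in replicate 2 at 16 to 17 Mb, over 40 peaks. Spearman's rho between consensus regions and the median score was 0.77 and 0.80 over the 46 windows, and 0.79 in both lists over the 1298 windows of the other chromosomes. These correlations are over windows that share libraries and depth.

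**Figure D5:**
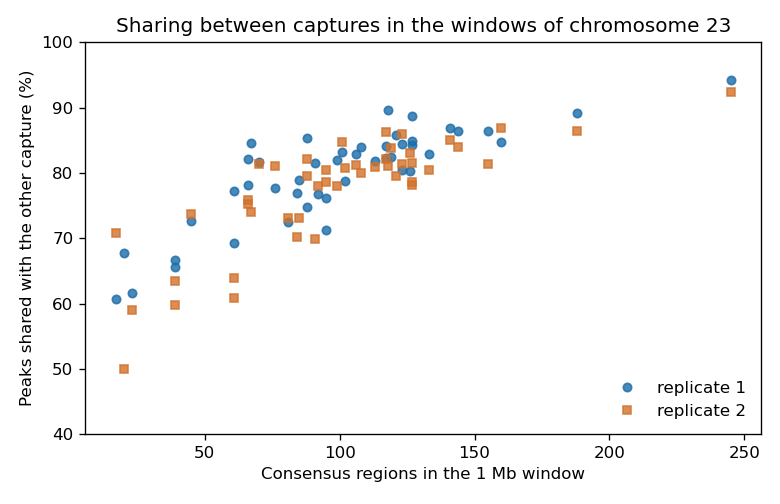
Percentage of peaks shared with the other capture (vertical axis, starting at 40%) against the number of consensus regions in the 46 complete 1 Mb windows of chromosome 23, for replicate 1 (circles) and replicate 2 (squares). The densest window, with 245 regions, has 94.3% and 92.4% shared, and the 5 sparsest lie between 50.0% and 70.8%.

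The ends of chromosome 23 held numbers in the middle of those of other chromosomes. Its first window held 117 consensus regions and stood at rank 10 of the first windows of the 25 chromosomes, and its last complete window held 66, at rank 17. A further 38 consensus regions lay in the 0.384 Mb between the last complete window and the last peak end at 46384266, which is where the span was taken to end.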

How the data were processed

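Per the labels' protocols, sheared DNA was tagged at 5hmC with an azide-bearing glucose, joined to biotin, pulled down with streptavidin and amplified by 12 cycles of PCR. Adapters were trimmed and BWA was the aligner (labels' protocols), on danRer7 per the submitters' processing notes. The deposited peaks are named after MACS, whose settings and control were not given in the sources used here. The deposited score per peak comes from the authors' peak caller and has no stated scale; the authors' starts and ends are in base pairs. Depth behind a peak is unknown; a depth of about 30M reads a library is stated in the labels' protocols.

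Members and lists were chosen with earlier results of these data known. Lists were compared with interval functions in Python 3.11.15 (numpy 2.4.6, pandas 2.3.3, scipy 1.17.1), tested on simulated data; plots used matplotlib 3.10.9. Each span runs from base 1 to the last base in any peak, and windows of 1 Mb count midpoints. Unsequenced or repeated stretches were not taken out of spans or windows, and their part in the densities was not tested. A consensus region has the highest score of its peaks in each list. Score deciles were cut over each whole list. Named were the 10 strongest and 5 widest consensus regions, the 5 densest and 5 sparsest windows, the 5 longest chains and gaps, and the 5 highest unshared peaks per list. Positions count from 1. Gene features were not analysed here. Alternatives covered thresholds, overlap, merging, windows and each list alone.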

Additional observations from a re-analysis of the deposited data

How the results depend on the processing

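Of 39 alternative values, 12 stayed within the spread between the lists (1 SD, or 1.5 times for a count), 27 moved and none reversed. Of the 12, 4 are score and width ratios of a single list, which lie within that spread by construction. Others could hardly move. Lists of equal length had 145501 peaks, which left replicate 1 whole and took few peaks from the 145893 of replicate 2. Counting the span from the first peak start changed the density ratio only from 1.2130 to 1.2128. Chromosome 23 was the densest chromosome in all 11 density alternatives, which is a description, since it was chosen for its density. Among these, each list alone repeats the values by which this chromosome was chosen. Leaving out chromosome 4, the sparsest, could not change the rank of chromosome 23. Its ratio to the median of the others was 1.30 with peaks above the median score, 1.45 with the top 10% and 1.24 by covered bases. It was 1.19 with peaks within 500 bp merged, 1.30 by the median window and 1.23 without the 5 densest windows of each chromosome. With choices made after the data had been seen, it was 1.17 without its own densest window and 1.20 without chromosome 4 among the others. Each list alone gave 1.16 to 1.18. The share of regions in the densest 10% of windows was 21.8% with 250 kb, 20.8% with 500 kb and 20.8% with 2 Mb windows, 20.6% with windows moved by 0.5 Mb, 24.3% above the median score, and 17.8 to 18.3% in each list alone; its rank ran from 9 to 24 of 25. Shared percentages were 74.8% and 74.2% when 50% of both peaks had to overlap, and 76.6% and 75.2% above the median score, where partners below it were also removed; chromosome 23 then ranked at 1 to 3. The score ratio fell to 1.03 above the median score (rank 8, the poorer of the ranks in the 2 lists). The width ratio was 1.03 above the median score and 1.05 with merged peaks. Each list alone gave score ratios of 1.061 to 1.062 and width ratios of 1.03 to 1.04. Chains over 50 kb numbered 2 with a 2 kb link (rank 9 per Mb), 99 with 10 kb, and 8 above the median score (rank 6); each list alone gave 44 to 48. Without the 4 chains that begin in the densest window, 30 remained (rank 5), including a chain that began before this window but lay mostly inside it. For this rank the other chromosomes kept all their chains. The cause of these shifts was not tested. No paired analysis was possible because only captures were analysed here, and inputs with their replicate numbers gave no values. Depth at each position is unknown, so absence of a peak does not show absence of 5hmC.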
